A study of Rattus norvegicus with 6 samples.

Results

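The TAM genes are 5 genes of 1 signalling system, namely the ligand genes Gas6 and Pros1 and the receptor genes Axl, Tyro3 and Mertk. They were chosen by symbol, with earlier results of these data known, and all 5 were found among the 17093 genes listed for each library. RNA came from primary nucleus pulposus cells, which form the soft core of the intervertebral disc. The donors were male rats, and the cells were at passages 3 to 6. Serum-starved cells (3 libraries) had spent 48 h in DMEM-F12 medium with 0% fetal bovine serum, and control cells (3 libraries) spent 48 h in the same medium with 10% fetal bovine serum. No genetic change and no other agent is named for either group, apart from the penicillin and streptomycin of the growth medium. Whether the replicates derive from different animals or dishes is not stated in the labels, and the p-values therefore reflect library-to-library spread that may be technical.

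TYRO3, AXL and MERTK are receptor tyrosine kinases whose ligands GAS6 and protein S bridge them to phosphatidylserine, a lipid that dying and stressed cells expose on their outer surface. GAS6 binds all of these receptors, whereas protein S (PROS1) acts mainly through TYRO3 and MERTK and is also an anticoagulant cofactor in blood. Both ligands need vitamin K-dependent carboxylation of glutamate residues to bind the lipid. AXL signals mainly towards survival and migration in fibroblast-like cells, MERTK is best known for the uptake of dying cells by phagocytes, and Gas6 took its name from its induction in growth-arrested fibroblasts.

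The promoters of Gas6, Axl and Mertk are shown because Gas6 and Axl were the most abundant of these transcripts and moved in opposite directions, and Mertk had the highest ratio between the groups. The sequences are from RefSeq on the rat build GRCr8, cover 250 bases before to 50 bases after the transcription start site used there, and read 5′ to 3′ on the strand of the gene. Capitals mark the GC box, GGGCGG or its reverse complement CCGCCC. The Gas6 window lies at chr16:82747426-82747725 on the plus strand, the Axl window at chr1:90423960-90424259 on the minus strand and the Mertk window at chr3:136392324-136392623 on the plus strand.
Gas6: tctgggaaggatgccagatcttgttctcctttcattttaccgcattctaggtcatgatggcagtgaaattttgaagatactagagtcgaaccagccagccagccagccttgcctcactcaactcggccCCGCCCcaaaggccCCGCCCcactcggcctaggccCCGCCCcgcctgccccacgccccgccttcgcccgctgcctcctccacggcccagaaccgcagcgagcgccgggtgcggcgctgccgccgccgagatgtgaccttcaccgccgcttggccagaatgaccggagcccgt
Axl: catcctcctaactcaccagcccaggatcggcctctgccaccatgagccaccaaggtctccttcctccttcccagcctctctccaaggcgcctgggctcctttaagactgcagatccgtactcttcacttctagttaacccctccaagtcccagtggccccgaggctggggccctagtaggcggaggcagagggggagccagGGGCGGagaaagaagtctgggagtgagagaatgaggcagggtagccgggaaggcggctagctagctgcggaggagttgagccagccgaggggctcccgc
Mertk: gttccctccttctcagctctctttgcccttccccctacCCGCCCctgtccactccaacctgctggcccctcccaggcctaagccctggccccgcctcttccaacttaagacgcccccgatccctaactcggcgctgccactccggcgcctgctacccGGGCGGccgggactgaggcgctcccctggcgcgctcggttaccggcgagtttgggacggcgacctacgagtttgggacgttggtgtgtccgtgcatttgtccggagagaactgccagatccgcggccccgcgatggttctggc

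The Gas6 window held 3 GC boxes, all on the other strand, beginning 122, 108 and 87 bases before the start site. The Axl window held 1, on the strand of the gene, beginning 49 bases before the start site. The Mertk window held 2, beginning 212 bases (other strand) and 93 bases (strand of the gene) before the start site. All 5 members were matched to a promoter, and all 5 windows held a GC box, as did 62.8% of the 10267 windows of tested genes and 33.1% of all 33469 windows. The TATA box (TATAAA), the CCAAT box (CCAAT) and a FOXO motif (GTAAACA), read on both strands, were in 0 of the 5 windows, against 6.48%, 37.8% and 2.3% of the windows of tested genes. The AP-1 motif TGANTCA, whose reverse complement is the same pattern, was in 1 of the 5 windows, that of Tyro3, against 4.82% of the windows of tested genes. Each motif was read by itself, and matches may overlap, as 2 GC boxes of Tyro3 did. The start site used for Gas6 is the outer edge of the gene in the reference, whereas those used for Axl, Tyro3, Mertk and Pros1 lie 114, 435, 638 and 989 bases inside it. A match of letters describes the window and does not show that a factor binds there.

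In serum-starved cells both ligand transcripts rose, and so did that of Tyro3, while Axl, by far the most abundant receptor transcript, fell. Gas6 was 3.65-fold higher and Pros1 2.001-fold higher. Tyro3 was 1.52-fold higher and Axl 1.38-fold lower. Mertk was 12.7-fold higher, against a control level near the bottom of the scale, and its call is not counted with the others. In each member, all 3 serum-starved libraries lay on the same side of all 3 control libraries.

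**Figure D1:**
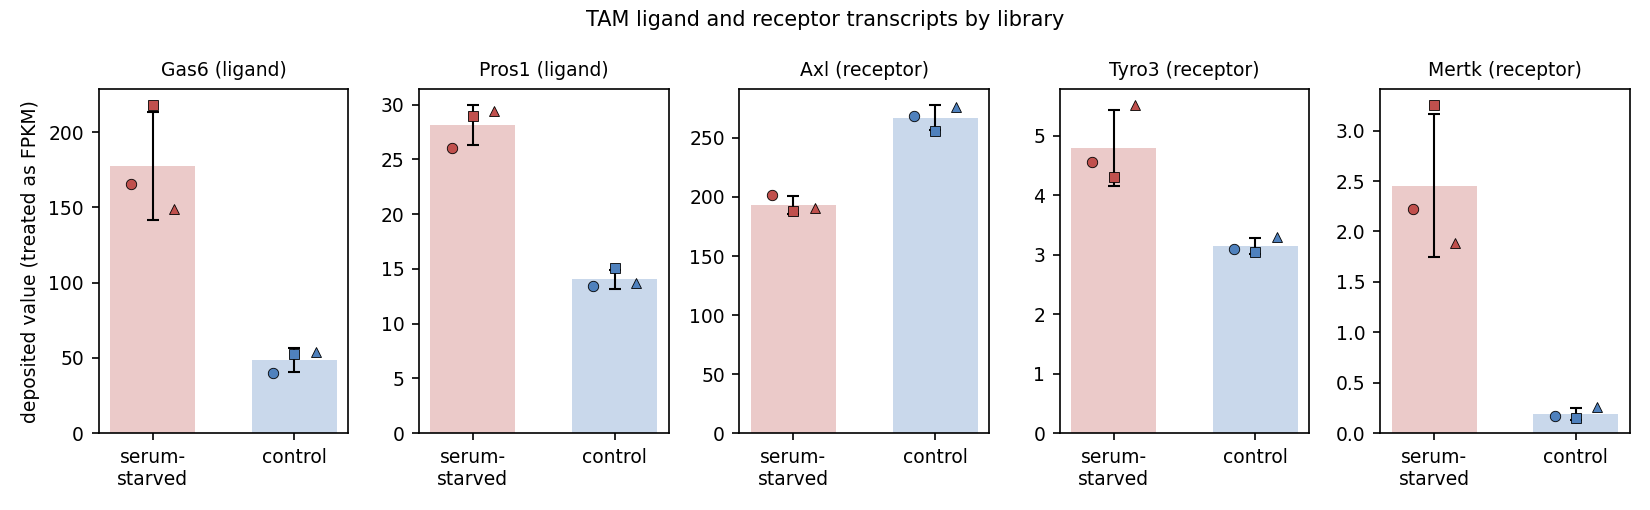
Deposited values of the 5 genes (treated as FPKM, each panel with its own axis from 0) in serum-starved (left, red) and control (right, blue) libraries. Symbols are replicates 1 (circle), 2 (square) and 3 (triangle), bars are means and error bars the SD (n = 3 each); in every panel the 2 groups do not overlap, and Axl is the only one of the 5 with its serum-starved libraries below the control ones.

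The deposited values are treated as FPKM, a unit that divides fragments by the transcript's length and the library's total, so that levels of different genes can be set side by side within a library. Fold changes given as ratios are ratios of mean FPKM. Each log2 fold change is the serum-starved mean less the control mean of log2(FPKM + 1), which understates the change of low genes, and comes with its standard error (SE). Tests are limma's moderated test across 11493 genes with an FPKM of at least 1 in at least 3 libraries, and rose or fell is written only of genes whose p, adjusted by Benjamini-Hochberg, did not exceed 0.05. At this threshold 61.1% of the tested genes passed, of which rises made up 31.7% and falls 29.4% of all tested, so that a call by itself sets no gene apart here. Counts of rises and falls in the gene lists below are to be read against these shares. With every library rescaled to the same total, 5303 genes rose and 2327 fell, against 3640 and 3384 on the deposited scale, and the median log2 fold change of all tested genes was 0.20 against 0.03. Of the 5 members, 4 had an FPKM of at least 1 in all 6 libraries, and of these 3 rose and 1 fell. Mertk passed the filter only through its serum-starved libraries, so it had to differ and its call is not counted with the others. All 5 members had groups that did not overlap, as did 68.2% of all tested genes (35.7% with the serum-starved group on the higher side and 32.5% on the lower).

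**Figure D2:**
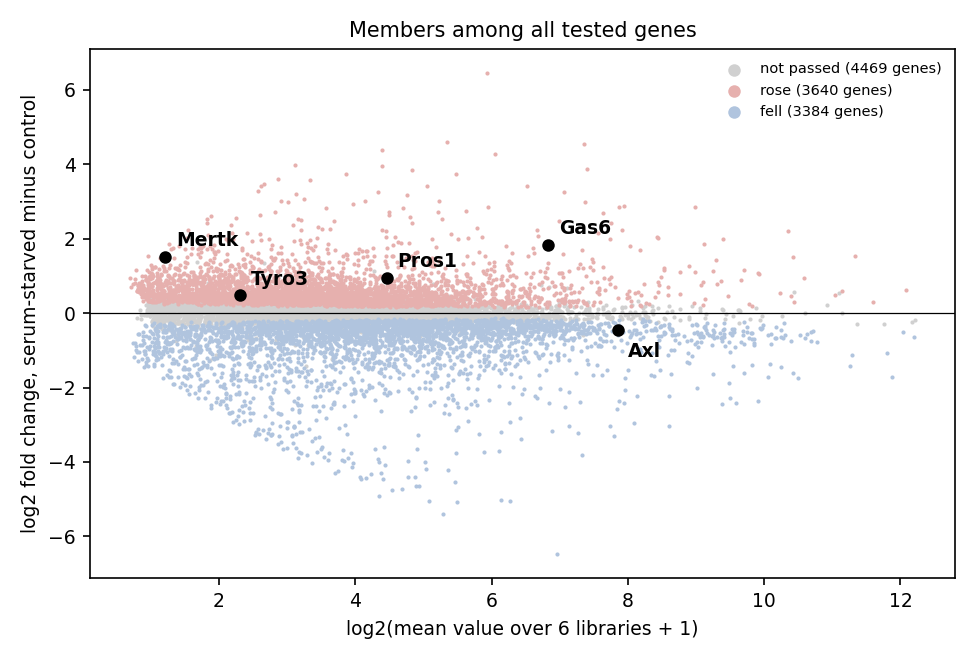
Log2 fold change (serum-starved minus control, log2(FPKM + 1) scale) against mean level over 6 libraries for the 11493 tested genes, coloured by limma call at an adjusted p of at most 0.05. Black points mark the members: Gas6 and Axl sit among the abundant genes at 1.84 and -0.46, Mertk among the lowest at 1.51.

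Gas6 (gene ID 58935), the ligand of all the TAM receptors, had 165.43, 217.74 and 148.79 FPKM in serum-starved replicates 1, 2 and 3, against 39.66, 52.45 and 53.6 FPKM in control replicates 1, 2 and 3. The lowest serum-starved library was above the highest control library by a wide margin, and serum-starved replicate 2 was the highest of all. Gas6 averaged 177 ± 36.0 FPKM in serum-starved cells and 48.6 ± 7.74 FPKM in control cells (SD, n = 3 each). Its log2 fold change was 1.84 ± 0.157 (SE) with a limma Benjamini-Hochberg adjusted p of 2.59e-05, the position 105 from the top among 11493 tested genes. By mean level, Gas6 ranked 394 of 17093 genes in serum-starved cells and 1780 in control cells.

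Pros1 (gene ID 81750), which encodes protein S, had 26.07, 28.95 and 29.37 FPKM in serum-starved cells, against 13.43, 15.05 and 13.7 FPKM in control cells. The groups were tight and far apart: the coefficient of variation was 6.39% in serum-starved and 6.17% in control libraries. Pros1 averaged 28.1 ± 1.80 FPKM in serum-starved cells and 14.1 ± 0.868 FPKM in control cells (SD, n = 3 each). The log2 fold change was 0.95 ± 0.0762 (SE), with a limma Benjamini-Hochberg adjusted p of 1.84e-05. Its change was thus smaller than that of Gas6 and its spread between replicates was smaller too. Gas6 made up 86.4%, 88.3% and 83.5% of the summed ligand FPKM in serum-starved replicates 1, 2 and 3, against 74.7%, 77.7% and 79.6% in control replicates 1, 2 and 3.

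Axl (gene ID 308444) had 201.84, 187.85 and 190.54 FPKM in serum-starved cells, against 268.89, 256.03 and 276.57 FPKM in control cells. All serum-starved libraries were below all control libraries, and the coefficient of variation was 3.84% and 3.88% in the groups. Axl averaged 193 ± 7.42 FPKM in serum-starved cells and 267 ± 10.4 FPKM in control cells (SD, n = 3 each). Its log2 fold change was -0.46 ± 0.0632 (SE), with a limma Benjamini-Hochberg adjusted p of 0.000347. With libraries rescaled to equal totals the log2 fold change was -0.27, or -0.47 relative to the median of all tested genes under that scaling. Axl remained among the most abundant transcripts of these cells, at rank 369 of 17093 in serum-starved and rank 300 in control cells.

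Tyro3 (gene ID 25232), a TAM receptor best known from the nervous system, had 4.55, 4.3 and 5.51 FPKM in serum-starved cells, against 3.09, 3.05 and 3.3 FPKM in control cells. The groups did not overlap, but the gap between them was narrower than for the ligands, and serum-starved replicate 3 was the highest library. Tyro3 averaged 4.79 ± 0.639 FPKM in serum-starved cells and 3.15 ± 0.134 FPKM in control cells (SD, n = 3 each). The log2 fold change was 0.48 ± 0.1 (SE) with a limma Benjamini-Hochberg adjusted p of 0.0035.

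Mertk (gene ID 65037) had 2.22, 3.25 and 1.89 FPKM in serum-starved cells, against 0.17, 0.15 and 0.26 FPKM in control cells. Every serum-starved library was above 1 FPKM and every control library below it, and serum-starved replicate 2 was again the highest. Mertk averaged 2.45 ± 0.709 FPKM in serum-starved cells and 0.193 ± 0.0586 FPKM in control cells (SD, n = 3 each). The log2 fold change was 1.51 ± 0.15 (SE), with a limma Benjamini-Hochberg adjusted p of 5.99e-05. Because Mertk passed the filter only through its serum-starved libraries, it had to differ, and this call is not counted. With a pseudocount of 0.1 in place of 1 the log2 fold change was 3.1, so for this low gene the size of the change depends on the scale. The depth in reads is unknown, so no counting interval can be set on the control values.

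Mertk is a marker of tissue macrophages, and the markers of such cells were therefore read beside it. Of 13 macrophage and leukocyte markers 6 were matched, and the defining genes were at or near 0 in both groups: Cd163 was listed at 0 in all 6 libraries, Adgre1 (F4/80) was at most 0.02 FPKM, and Csf1r was 0.02 to 0.1 FPKM in serum-starved and 0.14 to 0.25 FPKM in control libraries. Spi1, the myeloid transcription factor PU.1, was 0.16 to 0.21 FPKM in serum-starved and 0.05 to 0.15 FPKM in control libraries. Cd68, a lysosomal protein, rose 1.73-fold to 2.77 to 3.97 FPKM in serum-starved cells, against 1.47 to 2.4 FPKM in control cells. Cd14 fell 2.91-fold, to 7.17 to 10.66 FPKM in serum-starved cells, against 21.77 to 27.4 FPKM in control cells. The summed level of the 6 matched markers was 10.8 to 14.3 FPKM in serum-starved and 23.5 to 30.04 FPKM in control libraries. Most of this sum was Cd14 in every library, so its difference follows that gene rather than the markers as a set. The part of these cells in the Mertk values was not tested. All 4 matched endothelial markers were below the filter, with a summed level of 0.77 to 0.91 FPKM in serum-starved and 0.8 to 1.38 FPKM in control libraries.

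The order of levels was the same in both groups, Axl first, then Gas6, Pros1, Tyro3 and Mertk. In serum-starved cells the means of Axl and Gas6 did not differ beyond their spread, since Gas6 exceeded Axl in replicate 2 and stood below it in replicates 1 and 3. In control cells Axl was above Gas6 in every library. Per library, Gas6 FPKM divided by Axl FPKM was 0.82, 1.16 and 0.781 in serum-starved replicates 1, 2 and 3, against 0.147, 0.205 and 0.194 in control replicates 1, 2 and 3. As log2 of FPKM + 1, the Gas6 to Axl ratio averaged -0.14 ± 0.309 in serum-starved and -2.45 ± 0.249 in control cells (SD, n = 3 each), a difference of 2.3. The exact two-sided permutation test gave p = 0.1, the smallest value that 3 libraries against 3 can give.

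The summed ligand level was 191.5, 246.7 and 178.2 FPKM in serum-starved libraries, against 53.1, 67.5 and 67.3 FPKM in control libraries. The summed receptor level was 208.6, 195.4 and 197.9 FPKM in serum-starved libraries, against 272.1, 259.2 and 280.1 FPKM in control libraries. Ligand transcripts thus stood at about the level of receptor transcripts in serum-starved cells, with a ratio of 1.03 ± 0.204, and well below it in control cells, with a ratio of 0.232 ± 0.0334 (SD, n = 3 each, exact permutation p = 0.1). Axl made up 96.4% ± 0.327 of the receptor FPKM in serum-starved cells and 98.8% ± 0.0365 in control cells (SD, n = 3 each, exact permutation p = 0.1). The share of Tyro3 was 2.39% ± 0.342 in serum-starved and 1.16% ± 0.0242 in control cells, and that of Mertk 1.23% ± 0.381 in serum-starved and 0.071% ± 0.019 in control cells (SD, n = 3 each). The higher levels of Tyro3 and Mertk in serum-starved cells therefore left Axl as nearly all of the receptor signal in both groups.

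**Figure D3:**
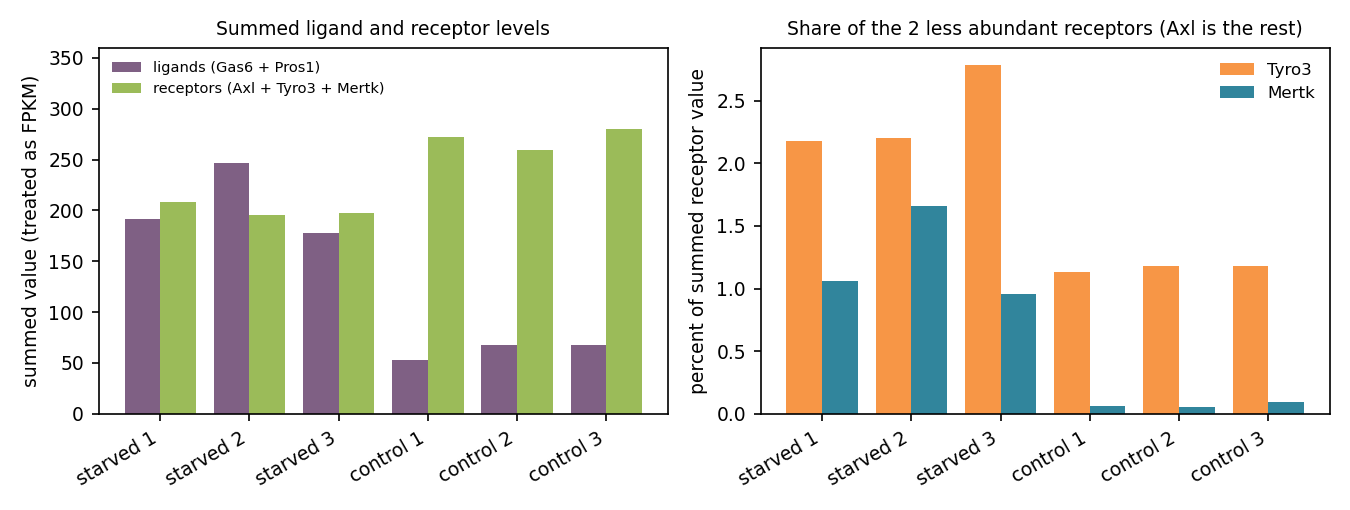
Left, summed FPKM of the ligands (purple) and of the receptors (green) in each library; right, the share of Tyro3 (orange) and Mertk (blue) in the summed receptor FPKM, in percent, with Axl making up the rest. Ligand sums are 178.2 to 246.7 in serum-starved and 53.1 to 67.5 in control libraries, and receptor sums are 195.4 to 208.6 in serum-starved and 259.2 to 280.1 in control libraries.

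The genes most like each member were taken as those with the smallest root mean square (RMS) difference from it over the 6 libraries, in log2(FPKM + 1) after centring each gene on its own mean. Gas6 was nearest to Lurap1l (RMS difference 0.0862), Zfhx4 (0.106) and Fgf14 (0.138), against a median of 0.937 over 11492 genes. Lurap1l, for example, had 17.45, 20.54 and 16.21 FPKM in serum-starved and 3.68, 4.59 and 4.56 FPKM in control replicates 1, 2 and 3. Like Gas6 it was highest in serum-starved replicate 2 and lowest in control replicate 1. Mertk was nearest to Rnf152 (0.0831) and Calcrl (0.084), both of them highest in serum-starved replicate 2. Pros1 was nearest to Pcdhb14 (0.0391), Iffo1 (0.0425) and Bace1 (0.0428), Axl to Ipo9 (0.0228), Rbbp4 (0.0279) and Klhl22 (0.0282), and Tyro3 to Vsig10 (0.0342), Rab31 (0.0369) and Kdsr (0.0454). With most genes differing between the groups, likeness over 6 libraries in 2 groups largely follows the size of the group difference.

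Carboxylation and propeptide cleavage make the ligands functional. Of 8 genes for these steps, all tested, 4 rose, 0 fell and 4 did not pass, and their median log2 fold change was 0.35 against 0.03 over all tested genes. Without control replicate 3, 1 of them fell. Vkorc1, the reductase that recycles vitamin K, rose 1.503-fold, to 101.43, 87.99 and 89.82 FPKM in serum-starved cells, against 55.22, 64.76 and 65.86 FPKM in control cells. Ggcx, the carboxylase itself, rose 1.28-fold, with 40 to 44.77 FPKM in serum-starved and 32.18 to 35.11 FPKM in control libraries. The proprotein convertases Pcsk5 and Furin rose 1.57-fold and 1.28-fold. These 4 rises passed limma with Benjamini-Hochberg adjusted p between 0.000637 (Vkorc1) and 0.00608 (Furin). Among 13 other genes for Gla proteins 9 were matched and 4 tested, of which 3 rose and 1 did not pass (median log2 fold change 0.47). Prrg1, a membrane Gla protein, rose 1.36-fold, whereas the call of Mgp (matrix Gla protein, 1.75-fold higher) was lost in 5 of the 15 alternative settings. The call of Prrg2 (2.09-fold higher) was lost in 7 of the 15, and it was below the filter in another 4. Prrg2 had 0.87 to 1.95 FPKM in serum-starved and 0.49 to 1.15 FPKM in control libraries, so its groups overlapped. Mgp had 90.78, 133.89 and 166.89 FPKM in serum-starved replicates 1, 2 and 3, against 65.76, 100.14 and 58.4 FPKM in control replicates 1, 2 and 3, so its groups overlapped as well. Without serum-starved replicate 3 or control replicate 3, 1 gene of this list rose.

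Protein S also has partners in coagulation. Of 9 genes for such partners and related coagulation proteins 5 were tested, 0 rose, 3 fell and 2 did not pass, and the median log2 fold change was -0.94. In 2 alternatives 1 gene rose, which was F8 with libraries rescaled to equal totals and C4bpa with no filter. Thbd, which encodes thrombomodulin, the cofactor for protein C activation, fell 5.72-fold, to 1.22, 1.19 and 1.1 FPKM in serum-starved cells, against 7.42, 4.97 and 7.7 FPKM in control cells (limma, Benjamini-Hochberg adjusted p = 1.88e-05). Procr, the endothelial protein C receptor, fell 2.02-fold, with 6.58 to 8.42 FPKM in serum-starved and 14.33 to 16.48 FPKM in control libraries. F3, tissue factor, which starts coagulation, fell 3.22-fold, to 124.97 to 175.53 FPKM in serum-starved cells, against 476.36 to 535.96 FPKM in control cells. Genes for C4b-binding protein, which carries protein S in plasma, were at or near 0: C4bpb was listed at 0 in all 6 libraries, and C4bpa was 0.23 to 0.71 FPKM in serum-starved and 0 to 0.03 FPKM in control libraries.

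Of the other proteins reported as TAM ligands, only Lgals3 (galectin-3) was expressed above the filter, with 1002.61, 917.14 and 955.09 FPKM in serum-starved cells, against 847.37, 825.55 and 864.11 FPKM in control cells. It rose 1.13-fold with a limma Benjamini-Hochberg adjusted p of 0.0489, in a range of 8.56e-05 to 0.145 over the settings, and the call was lost in 9 of the 15 alternatives. Tub and Tulp1 were at most 0.11 FPKM in any library.

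Axl and Mertk are shed from the surface by the proteases ADAM10 and ADAM17. Adam10 had 33.92 to 34.49 FPKM in serum-starved and 26.7 to 35.41 FPKM in control libraries, and Adam17 had 35.73 to 38.47 FPKM in serum-starved and 30.34 to 37.43 FPKM in control libraries. Neither passed the test (limma, Benjamini-Hochberg adjusted p = 0.128 and 0.344). Of the 5 genes on this list 2 rose and 1 fell, and the median log2 fold change was 0.19. With libraries rescaled to equal totals 4 rose, Adam10 and Adam17 among them, and 0 fell. Rhbdf1, a partner of ADAM17, rose 1.43-fold, with 18.59 to 18.84 FPKM in serum-starved and 11 to 14.62 FPKM in control libraries. The calls of its paralogue Rhbdf2 (1.36-fold lower) and of the inhibitor gene Timp3 (1.396-fold higher) were lost in 3 and 10 of the 15 alternatives, and Rhbdf2 was below the filter in 1 more. Accordingly 1 gene rose when control replicate 2 or 3, or serum-starved replicate 1 or 2, was left out, and 0 fell when replicate 3 of either group was.

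Of 22 genes for signalling below the receptors, all tested, 7 rose, 7 fell and 8 did not pass, and their median log2 fold change was -0.06. These counts were close to the shares over all tested genes, of which 31.7% rose and 29.4% fell. Socs3, a feedback inhibitor of cytokine signalling, fell 4.51-fold, to 8.19, 12.03 and 8.77 FPKM in serum-starved cells, against 36.44, 33.23 and 61.05 FPKM in control cells. Vav3, a guanine nucleotide exchange factor, rose 2.55-fold, to 2.71 to 3.34 FPKM in serum-starved cells, against 1.02 to 1.59 FPKM in control cells. Plcg1 (phospholipase C gamma 1) rose 1.45-fold and the transcription factor gene Twist1 fell 1.42-fold. The limma Benjamini-Hochberg adjusted p of these 4 genes lay between 0.000105 (Socs3) and 0.00166 (Twist1). Akt1 fell 1.31-fold, and the calls of Akt2 (1.22-fold lower), Src (1.23-fold lower) and Grb2 (1.202-fold lower) were lost when libraries were rescaled to equal totals, after which 3 genes of the list fell.

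**Figure D4:**
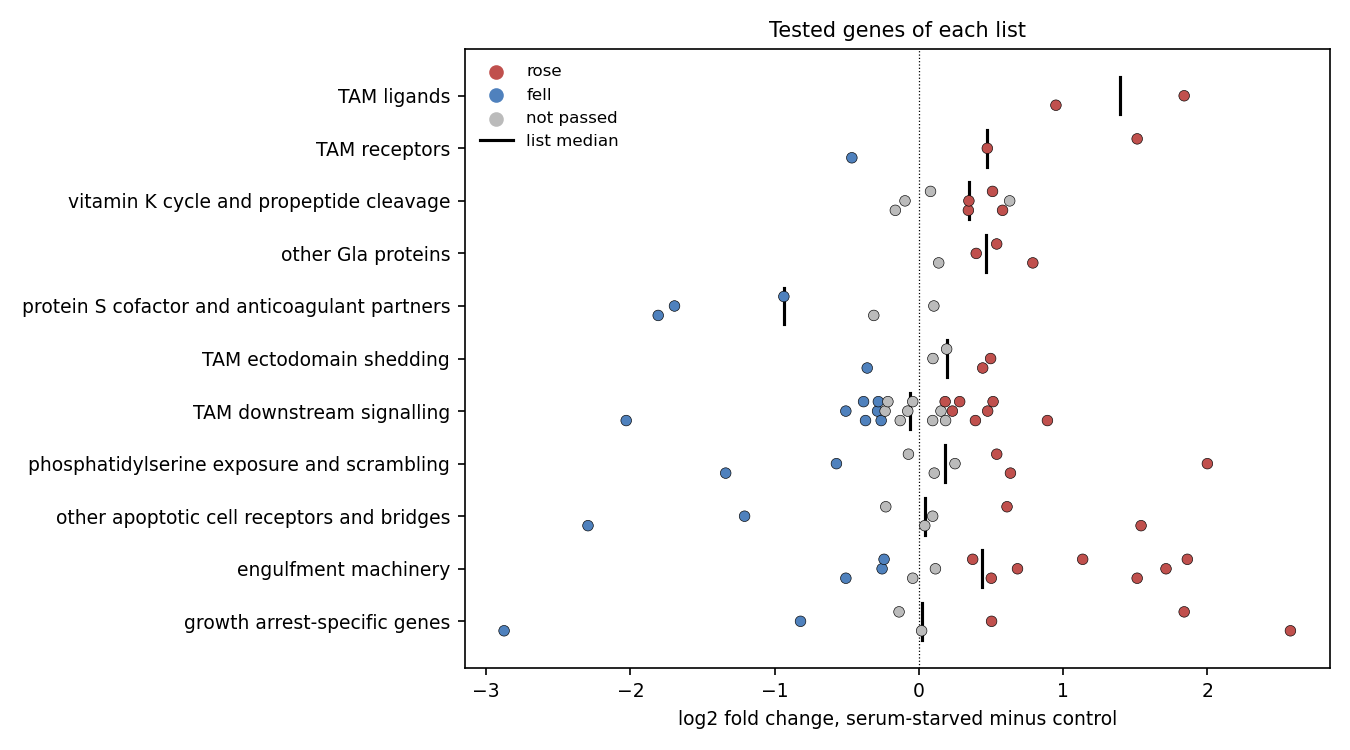
Log2 fold change (serum-starved minus control, log2(FPKM + 1) scale) of every tested gene of the TAM and neighbouring gene lists, coloured by limma call at an adjusted p of at most 0.05, with a bar at each list's median. The ligand median is 1.4 and the median of the protein S partners -0.94, while the 22 downstream signalling genes lie around 0.

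The engulfment list, which includes Mertk, had 12 tested genes, with 7 rises and 3 falls and a median log2 fold change of 0.44. Without Mertk and Elmo1, which entered only through their serum-starved libraries, 10 genes were left, with 5 rises, 3 falls and 2 genes that did not pass. Elmo1, which with DOCK1 activates Rac during engulfment, rose 10.5-fold, to 3.08, 3.47 and 3.42 FPKM in serum-starved cells, against 0.28, 0.38 and 0.29 FPKM in control cells. Abca1, a cholesterol exporter, rose 4.56-fold, to 11.03 to 14.76 FPKM in serum-starved cells, against 2.66 to 3.15 FPKM in control cells. Lamp1, a lysosomal membrane protein, rose 2.202-fold, to 828.82 to 845.79 FPKM in serum-starved cells, against 369.39 to 394.87 FPKM in control cells. The adaptor gene Gulp1 rose 1.73-fold and Dock1 1.32-fold, while Rac1 fell 1.42-fold. After rescaling to equal totals or quantile normalization, 1 gene of this list fell.

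Other receptors and bridges for dying cells were read as well. Of 15 genes 7 were tested, 2 rose, 2 fell and 3 did not pass. These counts were near the shares over all tested genes, of which 31.7% rose and 29.4% fell. The median log2 fold change of the list was 0.04. Mfge8, which bridges phosphatidylserine to integrins much as GAS6 bridges it to TAM receptors, had 401.22, 353.25 and 399.47 FPKM in serum-starved cells, against 369.29, 394.44 and 356.24 FPKM in control cells. Its groups overlapped (log2 fold change 0.04, limma Benjamini-Hochberg adjusted p = 0.656). Thbs1 (thrombospondin 1) rose 2.901-fold to 3551.58 to 4069.86 FPKM in serum-starved cells, against 1164.68 to 1518.42 FPKM in control cells, and the receptor gene Lrp1 rose 1.53-fold. The scavenger receptor gene Scarb1 fell 2.43-fold, to 9.79 to 11.45 FPKM in serum-starved cells, against 24.39 to 25.83 FPKM in control cells. Cd93 fell to 0.24, 0.35 and 0.3 FPKM in serum-starved cells, against 7.95, 4.12 and 4.6 FPKM in control cells, and it passed the filter only through the control libraries. Without control replicate 2 or 3 it was not tested and 1 gene of the list fell. After rescaling to equal totals or quantile normalization, 4 genes of this list rose.

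Of 10 genes for the exposure of phosphatidylserine, the lipid that GAS6 and protein S bind, 8 were tested, 3 rose, 2 fell and 3 did not pass, and the median log2 fold change was 0.18. Atp8a1, a flippase, rose 7.56-fold, to 6.45, 6 and 6.75 FPKM in serum-starved cells, against 0.83, 0.92 and 0.79 FPKM in control cells. It also passed the filter only through the serum-starved libraries. Atp11a, another flippase, fell 1.498-fold. The phospholipid scramblase family genes Plscr1 and Plscr3 fell 2.69-fold and rose 1.57-fold. The scramblases proper, Ano6 and Xkr8, did not pass (limma, Benjamini-Hochberg adjusted p = 0.397 and 0.0581). With libraries rescaled to equal totals, 5 genes of this list rose.

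Gas6 was named as a growth arrest-specific gene, and the genes of that name were read beside it. Of 10 such genes 8 were matched and 7 tested, of which 3 rose, 2 fell and 2 did not pass. Over all tested genes 31.7% rose and 29.4% fell, so these counts do not set the list apart. The median log2 fold change of the list was 0.02. Gas1, a membrane protein, rose 6.45-fold, to 44.11 to 47.83 FPKM in serum-starved cells, against 4.8 to 9.84 FPKM in control cells. Pmp22, first cloned as a growth arrest gene, had 93.25 to 106.53 FPKM in serum-starved and 97.36 to 102.23 FPKM in control libraries and did not pass (limma, Benjamini-Hochberg adjusted p = 0.815). Gas2l3, a cytoskeletal linker of dividing cells, fell 28.4-fold, to 0.2 to 0.41 FPKM in serum-starved cells, against 7.55 to 10.34 FPKM in control cells, and passed the filter only through the control libraries. The calls of Gas7 (1.78-fold lower) and Gas8 (1.59-fold higher) were lost in 6 and 5 of the 15 alternatives. Without control replicate 1 or 2, 0 genes of this list fell, and 1 fell when control replicate 3, serum-starved replicate 2 or serum-starved replicate 3 was left out.

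All 8 proliferation genes that were read beside the members fell, against 29.4% of all tested genes, and Mki67 was 34.1-fold lower. Ccnb1 passed the filter only through the control libraries, so it had to differ. When any control library was left out Ccnb1 was not tested, and 7 genes of the list fell. In bulk RNA, fewer cells of a kind and less RNA per cell cannot be told apart. Of 14 nucleus pulposus markers 12 were matched and 9 tested, and 7 fell and 2 rose. Among the falls, Car12 passed the filter only through the control libraries, so it had to differ. The call of Krt8 (2.01-fold lower) was lost in 6 of the 15 alternatives, and it was below the filter in 1 more. Without control replicate 1 or 2, 5 genes of this list fell, and with the filter at 5, 4 fell. Col2a1 was at most 0.06 FPKM, Cd24 at most 0.56 FPKM, and Krt18 was listed at 0 in every library. Other markers had clear signal. Acan, which fell, had 2.67 to 3.27 FPKM in serum-starved and 47.2 to 102.75 FPKM in control libraries. Cd44, which also fell, had 88.12 to 102.05 FPKM in serum-starved and 227.01 to 262.12 FPKM in control libraries. Pax1, which rose, had 46.23 to 56.27 FPKM in serum-starved and 23.58 to 29.71 FPKM in control libraries. Car3, the other marker that rose, was 25.4-fold higher, with 25.62 to 27.13 FPKM in serum-starved and 0.78 to 1.19 FPKM in control libraries. Of 8 fibroblast markers 5 rose and 2 fell, and their summed level was 6917 to 7825 FPKM in serum-starved and 7770 to 8713 FPKM in control libraries. Most of this sum was Vim, which fell 1.41-fold, and Col1a1, which rose 1.499-fold, so it does not describe the set. The largest changes were rises of Dcn (8.997-fold), Lum (4.31-fold) and Pdgfra (2.09-fold) and a fall of Thy1 (3.098-fold). Of 6 Schwann and nerve markers 5 were matched, and 2 of the 3 tested rose (1 without any of the serum-starved libraries), while Sox10 was listed at 0 in every library. The part of these shifts in the TAM values was not tested. FPKM summed to between 447788 and 473452 in serum-starved and between 522165 and 530095 in control libraries.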

How the data were processed

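Per the labels' protocols, RNA was depleted of ribosomal RNA, fragmented by heat and primed at random. The authors deposited 1 value per gene and library, rounded to 2 decimals. The file headers give no unit, and these deposited values are treated as FPKM because they are not whole and their sums differ between libraries. The submitters' processing notes list the tools bcl2fastq 2.0, HISAT2 and StringTie, beside DESeq2 and limma, and the mouse build mm10, although the gene IDs are rat ones, of which 15927 of 17093 (93.2%) matched GRCr8. The build behind the values, the strand setting and the treatment of reads matching several genes are not given in the sources used here. Depth in reads is unknown, so no counting interval is given.

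Values were taken as log2(FPKM + 1) and fitted with limma 3.58.1 (R 4.3.3), with an intensity trend and a single term for treatment (4 residual degrees of freedom). The filter kept 11493 genes and left out 5600, and p-values were adjusted by Benjamini-Hochberg over all genes kept. The test was checked on simulated data. Per-library ratios and shares were compared by exact permutation. Python 3.11.15, pandas 2.3.3, numpy 2.4.6, scipy 1.17.1 and matplotlib 3.10.9 were used. The members and 18 gene lists (167 distinct symbols, 144 matched) were chosen with earlier results of these data known. Genes were named by a rule: all members, up to 4 changed genes of largest change per list, lists of at most 5 genes in full, marker genes, and the 3 nearest profiles of each member, though not every gene it names is reported here. Others, such as Mfge8, Pmp22 and Akt1, were named after their values were seen. Alternatives changed the pseudocount, filter, scaling, library weights, trend, replicate block and each library in turn.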

Additional observations from a re-analysis of the deposited data

How the results depend on the processing

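Gas6, Pros1, Axl and Tyro3 kept their direction and passed the limma threshold of 0.05 (adjusted by Benjamini-Hochberg) in every setting in which they were tested. The log2 fold change ranged from 1.68 to 2.03 for Gas6, 0.92 to 1.13 for Pros1, -0.495 to -0.272 for Axl and 0.388 to 0.629 for Tyro3, and the highest adjusted p was 0.0369, for Tyro3. Mertk, whose call is not counted because it entered the filtered fits only through its serum-starved libraries, had log2 fold changes of 1.36 to 3.1. Mertk and Tyro3 could not be tested with the filter at 5, nor Mertk when a serum-starved library was left out, so fits with no filter and each library left out were added, a choice made once the values were known. Without serum-starved replicates 1, 2 and 3 in turn, this gave Mertk log2 fold changes of 1.56, 1.36 and 1.63. Samples with the same replicate number did not deviate together, with correlations of 0.037, -0.162 and 0.101 for numbers 1, 2 and 3 over 11493 genes. With the number as a replicate block 3508 genes rose and 3293 fell, and these 4 members passed, while Mertk had a log2 fold change of 1.51. Of 83 changed list genes 66 kept their call wherever they were tested, 17 lost it in at least 1 alternative and 0 changed sign. Rounding to 2 decimals and the unknown depth limit what can be said of values near 0, such as Mertk in control cells.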
